A study of Mus musculus with 12 samples.

Results

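The 8 genes described here were the adrenergic receptors Adrb1, Adra1a and Adra1b, the adenylyl cyclases Adcy5 and Adcy6, and the phosphodiesterases Pde3a, Pde4a and Pde4d. They were picked by symbol from a matrix of 55885 genes, and all 8 passed the filter on low values that left 13815 genes for testing. RNA was sequenced from heart tissue of male C57BL/6J mice, 8 weeks old, in 4 groups of 3 hearts each. The Saline group was wild type without cisplatin, the CDDP group was wild type given cisplatin at 6 mg/kg into the peritoneum on days 1, 8 and 15, and the STING-/- and STING-/-+CDDP groups carried a homozygous knockout of Sting1 (Tmem173-/- in the labels) without and with the same cisplatin course. Hearts were collected on day 22. The study's methods name different suppliers for the wild-type and the STING-/- mice, so genotype and source cannot be told apart. Both groups without cisplatin are untreated in the labels. The study's methods call the wild type one the saline group and name no injection for the STING-/- one. The values are TPM, a transcript level scaled for length that sums to about 1000000 in each heart. The read depth behind each heart is unknown, so no counting interval is given, and 19680 to 21024 genes were above 0 per heart.

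Noradrenaline from sympathetic nerves and adrenaline from the blood act on the heart through adrenergic receptors. The beta receptors couple to the stimulatory G protein, which switches on adenylyl cyclase. The resulting cyclic AMP activates protein kinase A (PKA), whose targets in the cardiomyocyte raise calcium cycling, force and rate. Phosphodiesterases break cyclic AMP down and keep its pools local. The alpha1 receptors couple instead to Gq and phospholipase C.

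The deleted gene was checked first. Sting1 was at 12.28, 6.59 and 6.50 TPM in Saline and at 22.11, 5.62 and 8.81 TPM in the CDDP hearts. It was at 3.82, 5.96 and 2.87 TPM in the STING-/- hearts and at 4.26, 4.67 and 3.37 TPM in the STING-/-+CDDP hearts. The knockout hearts lay low but still held Sting1 reads, and STING-/- replicate 2 lay above CDDP replicate 2, so the gene total alone does not check the deletion. The cardiomyocyte markers were present in every heart, at a summed 27700 to 52140 TPM over 10 genes. Atrial markers differed widely between hearts. Outside Saline their sums were 1189 to 15920 TPM in CDDP hearts, the highest in replicate 3. They were 3362 to 13810 TPM in STING-/- and 559.9 to 9784 TPM in STING-/-+CDDP hearts. The 8 atrial markers summed to 40990 TPM in Saline replicate 2 and to 478 and 506 TPM in the other Saline hearts, and their most abundant gene, Nppa, was at 25687, 300 and 333 TPM in that order. CDDP replicate 1 also stood apart, with 6 neutrophil markers summing to 1107 TPM against at most 92.6 TPM in any other heart, and the lowest cardiomyocyte sum. The results are therefore also given without Saline replicate 2 and CDDP replicate 1.

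The promoters of the 3 genes that passed the test below are shown first, so that the sequence upstream of their start sites can be read beside the expression values. RefSeq entries on GRCm38.p6 matched 5 of the 8 genes. Each line gives the 100 bases before an annotated start site, 5′ to 3′ on the strand of the gene, and capitals mark TGACG, the short site of the cyclic AMP response element, or GGGCGG, the GC box, on either strand.
Adrb1 promoter 1, chr19:56722017-56722116, plus strand: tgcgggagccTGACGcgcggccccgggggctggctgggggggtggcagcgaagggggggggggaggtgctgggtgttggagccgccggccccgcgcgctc
Adra1b promoter 1, chr11:43901238-43901337, minus strand: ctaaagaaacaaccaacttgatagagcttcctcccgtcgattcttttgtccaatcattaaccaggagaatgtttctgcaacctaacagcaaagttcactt
Adra1b promoter 2, chr11:43836490-43836589, minus strand: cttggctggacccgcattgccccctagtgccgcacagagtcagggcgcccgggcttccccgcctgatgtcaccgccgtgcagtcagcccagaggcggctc
Pde4a promoter 1, chr9:21165614-21165713, plus strand: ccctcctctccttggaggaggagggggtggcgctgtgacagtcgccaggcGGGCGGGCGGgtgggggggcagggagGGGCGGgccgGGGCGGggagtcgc
Pde4a promoter 2, chr9:21184001-21184100, plus strand: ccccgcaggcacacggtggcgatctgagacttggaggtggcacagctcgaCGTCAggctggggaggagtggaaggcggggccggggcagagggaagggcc
Pde4a promoter 3, chr9:21196605-21196704, plus strand: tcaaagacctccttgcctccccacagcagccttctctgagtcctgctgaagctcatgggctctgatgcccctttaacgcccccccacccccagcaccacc

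The full palindromic element TGACGTCA was in none of the 250-base windows of these promoters, while 1.55% of 32851 promoters of that length held it on either strand. The short site TGACG, which the full element contains, lay 90 bases before the start of Adrb1 and, on the opposite strand, 50 bases before the start of Pde4a promoter 2; 17.8% of promoters held it. Pde4a promoter 1 held 4 GC boxes, the first pair overlapping, against 32.7% of promoters with any, and Adrb1, Adra1b promoter 2 and Pde4a promoter 2 each held 1 on the opposite strand, 202, 185 and 125 bases before the start. CACGTG, the E-box, was in none of these windows and in 6.02% of all promoters. Adra1b promoter 1 and Pde4a promoter 3 held none of the motifs searched. Of these genes, Adrb1 lies at chr19:56722199-56733113 on the plus strand, Adra1b at chr11:43774606-43901210 on the minus strand and Pde4a at chr9:21165714-21213248 on the plus strand (GRCm38, GENCODE). The gene totals do not say which promoter was used, and a match is a description of letters only.

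Adrb1, the beta1 receptor and the main beta receptor of the cardiomyocyte, fell with CDDP in wild-type hearts. Its level was 5.72, 5.47 and 4.86 TPM in Saline hearts and 0.38, 1.17 and 1.28 TPM in the CDDP hearts. Every CDDP heart lay below every Saline heart, and the mean level was 17.6% of that of the Saline group. In whole tissue, fewer cells of a type and less RNA per cell cannot be told apart. The log2 fold change on the log2(TPM + 1) scale was -1.74 (SE 0.20, adjusted p = 7.15e-04, limma). In the knockout the level was 4.49, 4.67 and 5.18 TPM without cisplatin and 3.14, 2.49 and 2.83 TPM with it. The STING-/-+CDDP hearts therefore lay between the CDDP hearts and both groups without cisplatin, with no overlap on either side. Against CDDP the log2 fold change was 1.01 (SE 0.20, adjusted p = 0.0400), a mean level 2.99 times as high. Against STING-/- it was -0.60 (adjusted p = 0.192), which did not pass.

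Adra1b, the alpha1B receptor, is the alpha1 receptor of higher transcript level in mouse heart. It was at 15.83, 15.25 and 8.94 TPM in Saline and at 2.88, 4.78 and 5.48 TPM in the CDDP hearts. Again no CDDP heart reached a Saline heart, and the log2 fold change was -1.41 (SE 0.30, adjusted p = 0.00981, limma), with the mean at 32.8% of Saline. The STING-/- hearts spread widely, at 8.26, 16.61 and 18.94 TPM, and the STING-/-+CDDP hearts lay close together at 11.71, 13.22 and 13.31 TPM. Each STING-/-+CDDP heart was above all 3 CDDP hearts, by a log2 fold change of 1.38 (SE 0.30), but its adjusted p of 0.0520 missed the threshold of 0.05. Against STING-/- the difference was -0.11 (adjusted p = 0.912).

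Adra1a, the alpha1A receptor, did not pass in any comparison. Its values were 2.64, 2.33 and 4.76 TPM in Saline and 1.26, 4.96 and 2.14 TPM in the CDDP hearts, ranges that overlap. The log2 fold change was -0.24 with a 95% interval from -0.96 to 0.47 (adjusted p = 0.649, limma). That interval overlaps the one of Adra1b, from -2.07 to -0.74, and the contrast between these genes was not tested. STING-/- hearts held 3.06, 3.01 and 4.19 TPM and STING-/-+CDDP hearts 2.76, 3.67 and 4.19 TPM, the latter against CDDP at 0.37 (adjusted p = 0.568).

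Adcy5 and Adcy6 are the main adenylyl cyclases of the cardiomyocyte, both inhibited by calcium and by the inhibitory G protein. Adcy5 was at 16.72, 24.31 and 14.43 TPM in Saline and at 6.67, 9.39 and 16.64 TPM in the CDDP hearts. CDDP replicate 3 reached into the Saline range, and the log2 fold change of -0.77 (SE 0.29, adjusted p = 0.0878, limma) did not pass. Without that heart it was -1.09 (adjusted p = 0.0194), without CDDP replicate 1 it was -0.49, and without CDDP replicate 1 and Saline replicate 2 together it was -0.29 (adjusted p = 0.487). Adcy5 was at 13.57, 20.51 and 18.25 TPM in the STING-/- hearts and at 9.69, 10.95 and 8.00 TPM in the STING-/-+CDDP hearts, which did not overlap. The difference was -0.80 (adjusted p = 0.252). STING-/-+CDDP and CDDP differed by -0.10 (95% interval -0.73 to 0.54, adjusted p = 0.894), so for Adcy5, unlike Adrb1 and Pde4a, no higher level was called in the knockout under cisplatin; the contrast between genes was not tested.

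Adcy6 had the highest level of the 8 genes, at 38.13, 69.82 and 50.98 TPM in the Saline hearts. The CDDP hearts split, with 22.39 TPM in replicate 1 and 81.14 and 90.24 TPM in the others. The log2 fold change was 0.09 (SE 0.42, adjusted p = 0.898, limma). With both CDDP replicate 1 and Saline replicate 2 left out, a choice made after seeing the data, it was 0.94 (adjusted p = 0.0106). STING-/- hearts held 47.34, 56.85 and 57.51 TPM, STING-/-+CDDP hearts 57.95, 55.55 and 43.42 TPM, and the latter against CDDP gave -0.08 (adjusted p = 0.943). An antisense gene, Gm29331, overlaps exons of Adcy6, and strandedness is not given in the sources used here, so reads of the pair cannot be told apart.

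Pde4a, a phosphodiesterase specific for cyclic AMP, had the largest SD over the 12 hearts of the 8 genes, 0.83 on the log2(TPM + 1) scale. It was at 14.04, 15.37 and 10.75 TPM in Saline and fell to 2.59, 5.14 and 4.80 TPM in the CDDP hearts. The groups did not overlap, the mean level was 31.2% of Saline, and the log2 fold change was -1.50 (SE 0.25, adjusted p = 0.00298, limma). The STING-/- hearts, at 14.12, 21.66 and 24.40 TPM, did not pass against Saline, with a log2 fold change of 0.53 (unadjusted p = 0.0579, adjusted p = 1). The STING-/-+CDDP hearts were at 10.21, 12.62 and 9.32 TPM. They lay above every CDDP heart, by 1.21 (SE 0.25, adjusted p = 0.0460), and below every STING-/- heart, at -0.82 (adjusted p = 0.162).

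Pde3a, which cyclic GMP inhibits, and Pde4d, which is attached to several receptor and calcium channel complexes, did not pass in any comparison. Pde3a was at 8.51, 8.33 and 6.22 TPM in Saline and at 4.72, 12.26 and 8.85 TPM in the CDDP hearts, a log2 fold change of 0.07 (95% interval -0.50 to 0.64, adjusted p = 0.871, limma). Its knockout hearts ranged from 6.93 to 8.93 TPM without cisplatin and from 7.09 to 8.07 TPM with it. Pde4d was at 6.43, 6.09 and 4.21 TPM in Saline and at 4.15, 4.54 and 7.67 TPM in the CDDP hearts, a log2 fold change of -0.05 (95% interval -0.55 to 0.45, adjusted p = 0.901). Its knockout hearts ranged from 4.79 to 7.48 TPM without cisplatin and from 5.62 to 5.99 TPM with it. Against CDDP the STING-/-+CDDP group differed by -0.11 for Pde3a (adjusted p = 0.860) and by 0.11 for Pde4d (adjusted p = 0.831). The antisense gene Gm28523 overlaps exons of Pde3a, and Pde4d has 20 annotated transcripts that a gene total cannot separate.

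**Figure D1:**
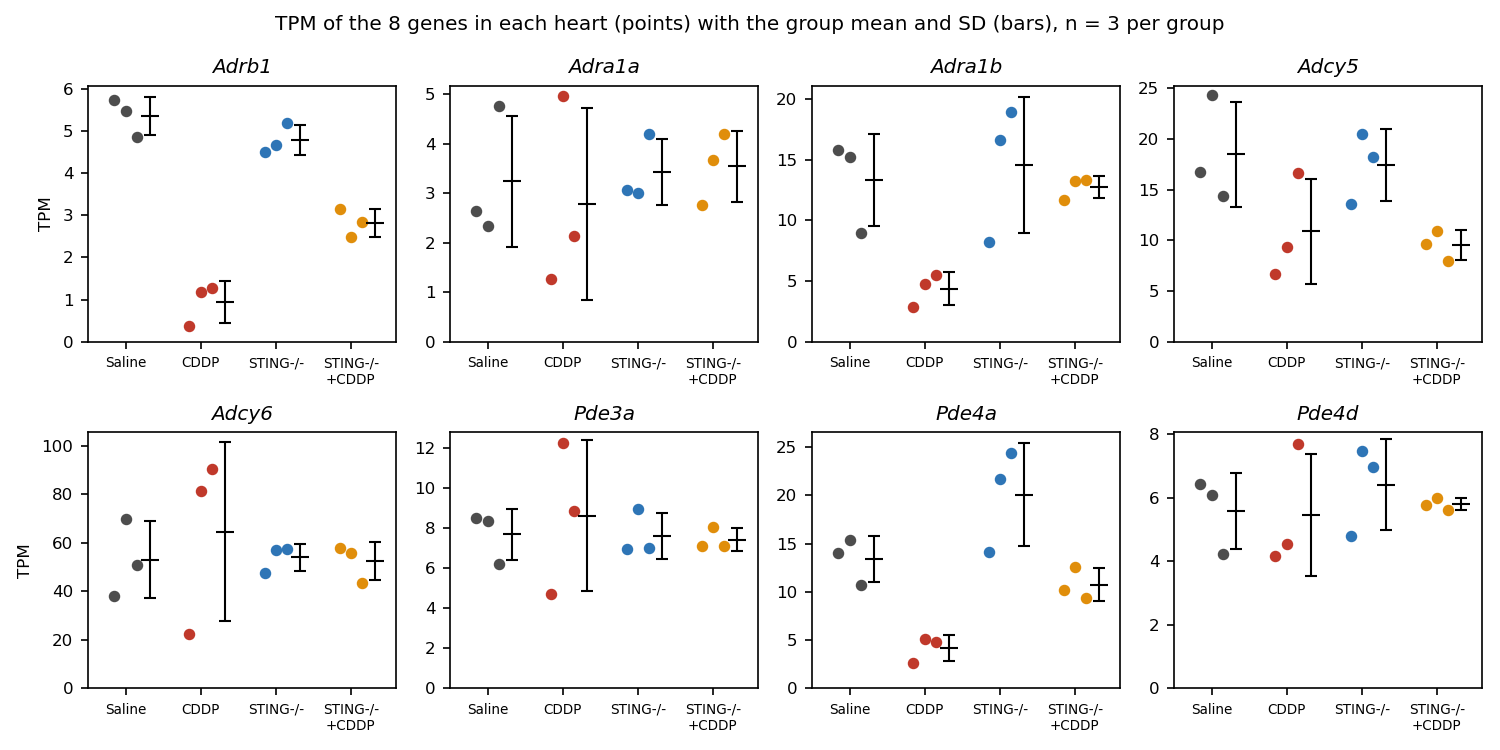
TPM of each of the 8 genes (vertical axes, each from 0) in the 3 hearts of each group (points), with the group mean and SD (bars). Adrb1, Adra1b and Pde4a are lower in all 3 CDDP hearts than in every Saline heart, and the CDDP points of Adcy6, Pde3a and Adra1a are the most spread.

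In the Saline hearts the order of mean levels was Adcy6 at 53.0 TPM, Adcy5 at 18.5, Pde4a at 13.4, Adra1b at 13.3, Pde3a at 7.69, Pde4d at 5.58, Adrb1 at 5.35 and Adra1a at 3.24 TPM. Neighbours in this order overlapped between hearts, except Adcy6 above Adcy5, Adra1b above Pde3a and Adrb1 above Adra1a. In the CDDP hearts Adrb1 had the lowest mean, at 0.943 TPM.

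Of the 8 genes, 3 passed as lower and 0 as higher in CDDP against Saline, where 10.4% of all tested genes were lower and 8.52% higher. The median log2 fold change of the 8 was -0.50, against -0.0032 over all tested genes. In STING-/-+CDDP against CDDP, 2 of the 8 were higher and 0 lower, where 0.362% of tested genes were higher and 0.854% lower; the medians were 0.24 and -0.0947. None passed in STING-/- against Saline (0.0724% of tested genes in either direction), in STING-/-+CDDP against STING-/- (0.934%) or in the interaction of cisplatin and genotype (0.00724%). At an unadjusted p under 0.05, 0, 3 and 2 of the 8 would pass in these comparisons, where 3.69%, 13.5% and 11.7% of all tested genes would. The interaction, which asks whether the cisplatin effect itself differed between genotypes, was 1.14 for Adrb1 (unadjusted p = 0.00158, adjusted p = 0.307), 1.30 for Adra1b (0.0111 and 0.342), 0.68 for Pde4a (0.0818 and 0.483) and -0.03 for Adcy5 (adjusted p = 0.983), so a different cisplatin effect was not shown. Without CDDP replicate 1 the interaction of Pde4a was 0.43, and without that heart and Saline replicate 2 it was 0.33 for Pde4a (adjusted p = 0.582) and -0.51 for Adcy5 (adjusted p = 0.430). The CDDP hearts enter both main comparisons, with opposite signs, so the fall and the higher level in the knockout are not independent of each other.

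**Figure D2:**
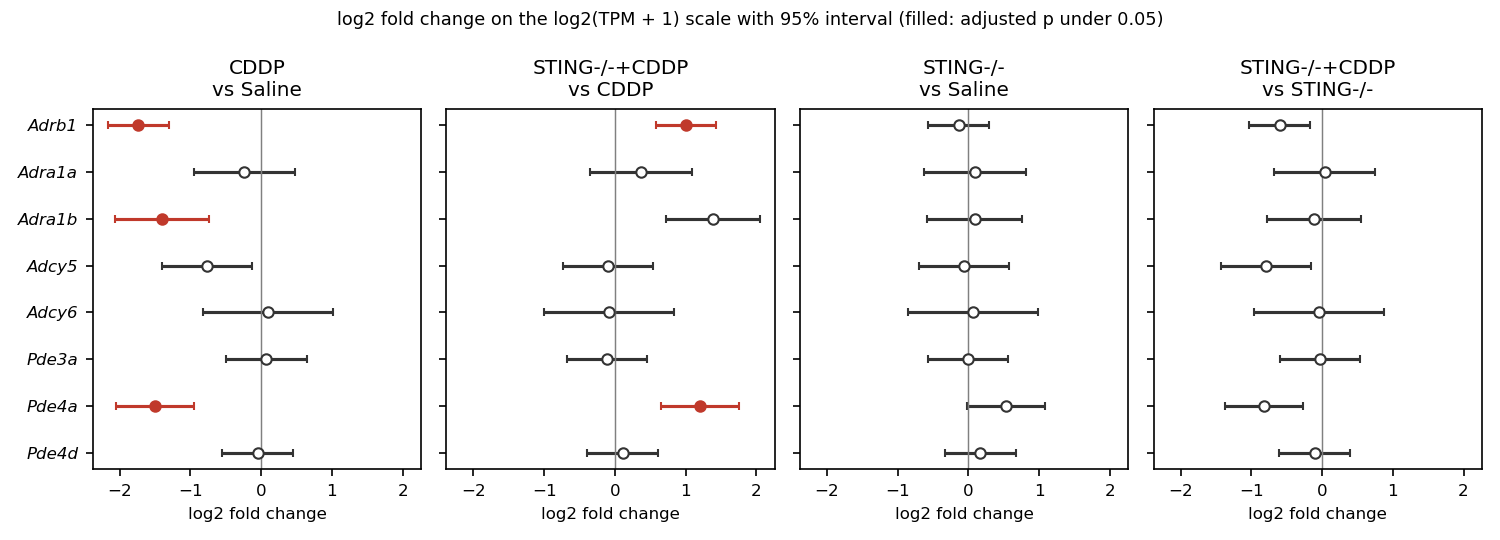
Log2 fold change of each gene on the log2(TPM + 1) scale (horizontal axes) with its 95% interval, for 4 comparisons of 3 hearts against 3. Filled red points passed at an adjusted p under 0.05: Adrb1, Adra1b and Pde4a against Saline, and Adrb1 and Pde4a against CDDP.

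The calls against Saline were steadier than those against CDDP. Adrb1, Adra1b and Pde4a passed against Saline whichever of the 12 hearts was left out. With CDDP replicate 1 and Saline replicate 2 both left out, Adrb1 was at -1.50 (adjusted p = 0.00157) and Pde4a at -1.16 (0.0136), and Adra1b, at -1.08 (0.0544), no longer passed. Against CDDP, the STING-/-+CDDP calls of both Adrb1 and Pde4a were kept only when Saline replicate 2 or CDDP replicate 2 was left out, and were lost with any of the other 10 hearts; without CDDP replicate 1 the values were 0.78 (adjusted p = 0.0602) and 0.96 (0.0849). Leaving out STING-/- replicate 1 brought Adra1b to an adjusted p of 0.0437.

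Because TPM values compare per length, Pde4a, Adra1b and Adcy5 were also set against related genes within a heart, a measure chosen after the levels had been seen. With 3 hearts against 3, the smallest p of a two-sided exact permutation test is 0.1. Pde4a made up 38.4%, 45.9% and 43.1% of the summed TPM of Pde4a, Pde4b and Pde4d in Saline hearts against 5.29%, 23.9% and 15.0% in the CDDP hearts (exact p = 0.1). The share was 41.3%, 46.1% and 42.6% in STING-/-+CDDP hearts, above every CDDP heart and within or just above the Saline range. In STING-/- hearts it was 50.5%, 53.0% and 61.2%, above every Saline heart, by 12.4 percentage points on average (exact p = 0.1). All STING-/-+CDDP hearts lay below all STING-/- hearts, a mean difference of -11.5 points (exact p = 0.1). Pde4b, the phosphodiesterase that neutrophils and macrophages also hold, was at 42.26 TPM in CDDP replicate 1, the heart with the high neutrophil markers, and at 11.81 and 19.60 TPM in the other CDDP hearts, against 16.09, 12.01 and 10.01 TPM in Saline; without CDDP replicate 1 the fall of the Pde4a share was 23.0 percentage points, against 27.7 with it. The part of neutrophil RNA in the share was not tested. Adra1b made up 79.2% ± 12.1 (SD, n = 3) of Adra1a and Adra1b in Saline and 63.5% ± 12.6 in CDDP hearts (exact p = 0.3), a difference of -15.7 points that was -8.50 without CDDP replicate 2 and -22.7 without Saline replicate 3. It was 79.8% ± 6.11 in STING-/- and 78.4% ± 2.44 in STING-/-+CDDP hearts, the latter above every CDDP heart by a mean of 14.9 points (exact p = 0.1), or 7.68 without CDDP replicate 2. Adcy5 made up 26.1% ± 4.22 of Adcy5 and Adcy6 in Saline and 16.3% ± 6.32 in CDDP hearts (exact p = 0.2), and 24.3% ± 2.12 in STING-/- and 15.5% ± 1.07 in STING-/-+CDDP hearts (exact p = 0.1).

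**Figure D3:**
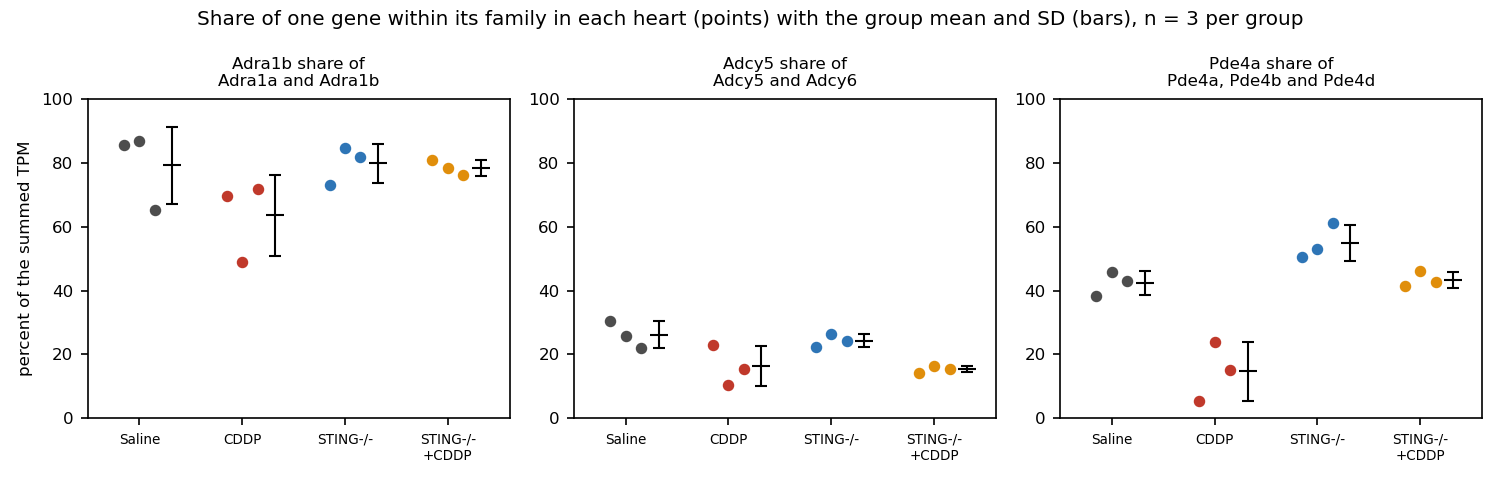
Percent of summed TPM (vertical axes, 0 to 100) in each heart (points), with the group mean and SD (bars, n = 3). Shares are Adra1b of Adra1a and Adra1b, Adcy5 of Adcy5 and Adcy6, and Pde4a of Pde4a, Pde4b and Pde4d. The CDDP hearts lie below all other hearts for Pde4a.

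The rest of the pathway was read from 138 further genes in lists by role, of which 122 were tested. With CDDP 23 were lower and 9 higher than Saline, which is 18.9% and 7.38% of those tested, against 10.4% and 8.52% of all genes tested, and their median was -0.19. The share higher was thus near the background. The lower genes were spread over receptors, G proteins, RGS regulators, cyclases, phosphodiesterases and the PKA subunit and inhibitor list. Most of the higher ones were transcription factors and transcripts that cyclic AMP can induce. The counts by role that follow come from short lists and were not tested against the shares of all tested genes. In STING-/-+CDDP against CDDP 0 were higher and 4 lower, where 0.362% and 0.854% of all genes were.

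Among the other receptors, 1 of the 2 tested was lower with CDDP: Adra1d, the alpha1D receptor, at 2.65, 1.83 and 1.64 TPM in Saline and 0.13, 0.35 and 0.75 TPM in CDDP hearts. Of the 4 muscarinic and adenosine receptors only Adora2a, an adenosine receptor, was lower, at -1.65 (adjusted p = 0.00410, limma), from 14.73, 5.78 and 12.14 to 2.89, 3.09 and 1.85 TPM. Of 15 G protein subunits 3 were lower, led by the beta subunit Gnb4 at -1.51 (adjusted p = 0.00934). Gnas, the stimulatory alpha subunit, stood between 555 and 725 TPM in all 12 hearts and did not pass. Of 11 desensitization genes 3 were lower, all RGS proteins, which speed the switching off of G proteins: Rgs4, Rgs5 and Rgs6, the last at -1.30 (adjusted p = 0.0107). Without CDDP replicate 1 and Saline replicate 2, Rgs6 was at -0.97 and lost its call (adjusted p = 0.0589, limma). Grk2, the kinase that desensitizes beta receptors, was at 29.31, 28.85 and 26.73 TPM in Saline and at 29.48, 27.79 and 31.35 TPM in CDDP hearts, overlapping values.

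Downstream, 2 of 5 other cyclases (Adcy3 and Adcy7) and 3 of 14 other phosphodiesterases (Pde1c, Pde7b and Pde8b) were lower. Prkaca, the main catalytic subunit of PKA, fell from 105.52, 103.64 and 98.84 TPM to 56.48, 68.99 and 60.79 TPM. Its log2 fold change was -0.72 (adjusted p = 0.00445, limma). The PKA inhibitor Pkia was also lower, which makes 2 of the 9 listed genes for PKA subunits and inhibitors. Prkar1a, a regulatory subunit, was at 114 to 178 TPM in Saline and 129 to 156 TPM in CDDP hearts and did not pass. Of 17 anchors and other cyclic AMP effectors 4 were lower, the pacemaker channels Hcn2, at -1.51 (adjusted p = 0.0139), and Hcn4, the cyclic AMP binding protein Bves and the mitochondrial anchor Akap1. Akap6, the nuclear envelope anchor of PKA, was at 54.14 TPM in CDDP replicate 1 and at 7.49 to 15.84 TPM in the other 11 hearts, and did not pass. In the list of 12 PKA substrates 1 was lower, the calcium channel subunit Cacnb2, and 1 higher, Ppp1r2. Ppp1r2, phosphatase inhibitor 2, is known as a target of kinases other than PKA. Pln, phospholamban, was at 2438, 1757 and 2453 TPM in Saline and 1130, 2835 and 2440 TPM in CDDP hearts.

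The cyclic AMP induced transcripts went the other way, with 5 of 8 higher and 0 lower. Nr4a1, a nuclear receptor of the immediate early kind, was at 27.31, 12.24 and 7.71 TPM in Saline and 60.86, 31.88 and 74.23 TPM in CDDP hearts (1.85, adjusted p = 0.0113, limma), a call kept in 10 of 13 alternatives and lost without CDDP replicate 1 and Saline replicate 2 (adjusted p = 0.0524). It was at 8.03, 8.78 and 7.68 TPM in STING-/-+CDDP hearts, against CDDP a log2 fold change of -2.55 (adjusted p = 0.0216). Sik1, a kinase that restrains the CREB coactivators, was at 13.56, 9.57 and 6.37 TPM in Saline, 23.87, 31.03 and 30.22 TPM in CDDP and 10.34, 9.68 and 8.27 TPM in STING-/-+CDDP hearts. Its log2 fold changes were 1.48 (adjusted p = 0.00243) and -1.49 (0.0216). Nr4a3 rose by 1.41 (adjusted p = 0.0154), and Per1 and Fosb were also higher. These transcripts are induced by many signals besides cyclic AMP. Of 8 CREB factors Creb1 and Crtc2 were higher with CDDP. Crem, a CREB family member, was at 14.85, 14.64 and 16.03 TPM in CDDP hearts and at 8.58, 8.32 and 8.17 TPM in STING-/-+CDDP hearts, a difference of -0.79 (adjusted p = 0.0341, and 0.0527 without CDDP replicate 1 and Saline replicate 2). Ppp1r2 differed there by -0.79 (adjusted p = 0.0263). These 4 calls against CDDP were kept in 7 (Nr4a1), 8 (Sik1), 6 (Crem) and 7 (Ppp1r2) of the 12 fits with a heart left out, and each was lost without CDDP replicate 3 or any STING-/-+CDDP heart. Against Saline, the calls of Hcn2 and Nr4a3 were lost without Saline replicate 1 (adjusted p = 0.0611 and 0.0658).

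Of 10 alpha1 effectors 2 were lower. Plcb1, a phospholipase C that Gq activates, was at 2.27, 1.77 and 2.16 TPM in Saline and 0.17, 0.15 and 0.24 TPM in CDDP hearts (-1.37, adjusted p = 8.02e-04, limma), and the kinase Prkce was also lower. Among 7 catecholamine handling genes Dbh, which makes noradrenaline from dopamine, was lower, at 8.41, 8.51 and 7.01 TPM in Saline and 1.09, 0.31 and 1.04 TPM in CDDP hearts (-2.33, adjusted p = 7.80e-04). Dbh was already at 3.15, 1.64 and 4.73 TPM in the STING-/- hearts, below all Saline hearts, and at 0.82, 0.77 and 0.97 TPM in STING-/-+CDDP hearts. Th, which marks sympathetic neurons, was listed at 0 to 0.22 TPM throughout. In STING-/-+CDDP against STING-/- 1 of the 122 pathway genes passed, as higher, a call lost when any of the 6 knockout hearts was left out. No pathway gene passed in STING-/- against Saline or in the interaction.

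**Figure D4:**
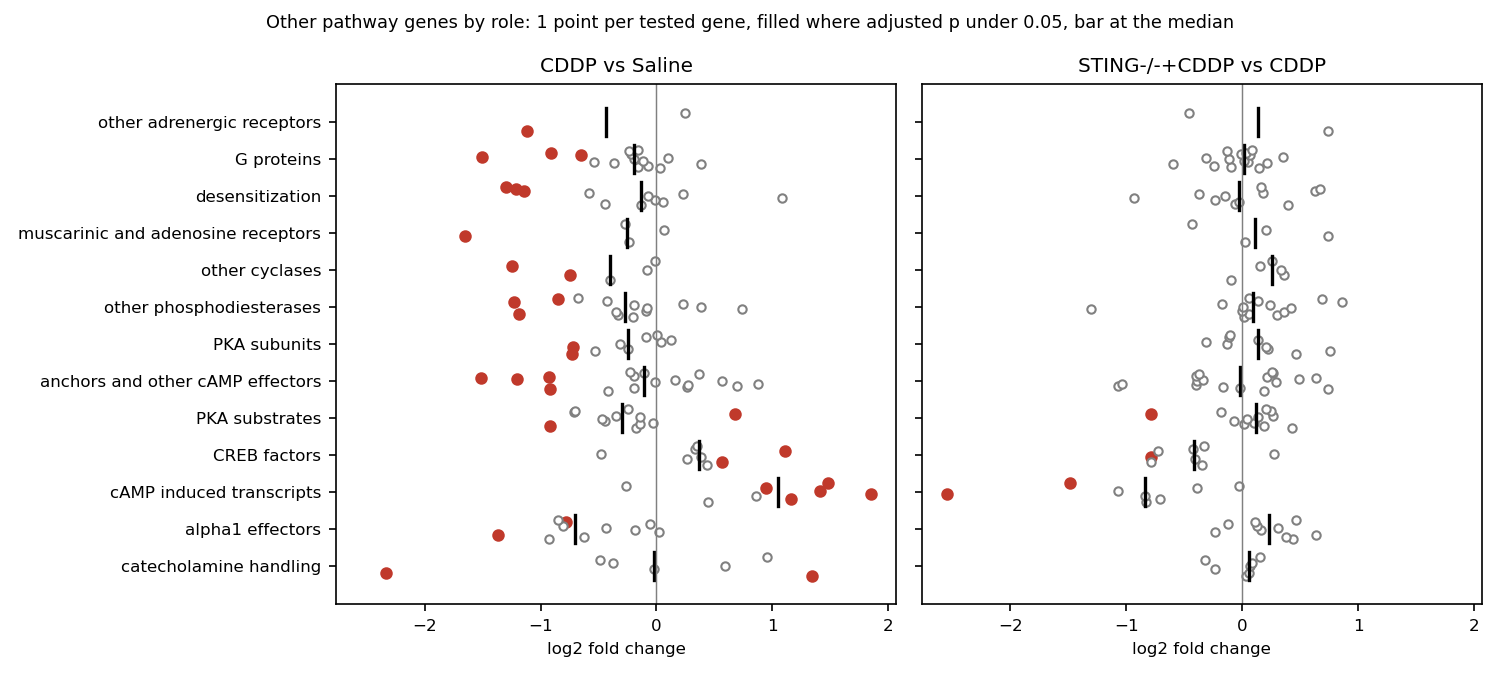
Log2 fold change (horizontal axes) of each tested pathway gene outside the 8, by role, in CDDP against Saline (left) and STING-/-+CDDP against CDDP (right); filled points passed at an adjusted p under 0.05 and bars are list medians. On the left filled points lie below 0 in most roles and above 0 for the cyclic AMP induced transcripts, with a list median of 1.05; on the right only 4 are filled, all below 0.

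For the 3 genes that varied most, the tested genes nearest in pattern were found by the root mean square difference of their centred log2(TPM + 1) values over the 12 hearts. Nearest to Adrb1 were Cmc2 (0.168), Rtn4ip1 (0.178) and Afg1l (0.179). Nearest to Pde4a were Pde7b (0.228), Gal3st3 (0.251) and Nt5c1a (0.272). Nearest to Adra1b were Fndc5 (0.269), the related receptor Adra1d (0.304) and Rtn4rl1 (0.310). Cmc2 was at 49.26, 45.25 and 44.81 TPM in Saline, 11.92, 19.06 and 19.92 TPM in CDDP, 34.51, 39.61 and 49.39 TPM in STING-/- and 30.70, 25.55 and 24.98 TPM in STING-/-+CDDP hearts.

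Markers of other cells moved with CDDP as well, where 10.4% of all tested genes were lower and 8.52% higher. Of the cardiomyocyte markers 1 of 10 was higher (Tnnt2) and 2 lower (Actc1 and Ckm), and their summed level was 34530 to 48130 TPM in Saline and 27700 to 38940 TPM in CDDP hearts. Over the 12 hearts their most abundant gene, Myl2, was at 14303, 5976 and 11314 TPM in Saline and 6940, 9573 and 5612 TPM in CDDP hearts, and Actc1 fell from 7824, 5559 and 5036 TPM to 187, 681 and 1067 TPM. Macrophage markers were lower in 6 of 8 cases, with sums of 533.5, 679.1 and 537.1 TPM in Saline and 150.5, 310.7 and 279.7 TPM in CDDP hearts, with C1qa the most abundant. Fibroblast markers were lower in 4 of 8, Lum and the collagens Col1a1, Col1a2 and Col3a1, with a list median of -1.42. Col3a1 averaged 179.5 TPM in Saline and 10.7 TPM in CDDP hearts. The sums of this list overlapped (915.1 to 2246 and 1035 to 2231 TPM). Dcn, its most abundant gene in each heart, averaged 836.3 and 1334 TPM and did not pass. Endothelial markers were lower in 4 of 8, with sums of 687.2 to 778.8 and 434.4 to 637.6 TPM. The most abundant endothelial marker was Egfl7 in Saline, lower with CDDP at -0.68, and Pecam1 in CDDP hearts. Pecam1 averaged 156.1 TPM in Saline and 160.7 TPM with CDDP and did not pass. Red blood cell markers were lower in 5 of 5, with sums of 4146 to 9317 and 41.95 to 1271 TPM, with Hbb-bs the most abundant. The sympathetic neuron and Schwann cell list was lower in 1 of 5, Dbh; its most abundant gene, Stmn2, was at 9.27, 8.52 and 9.25 TPM in Saline and 1.43, 6.05 and 5.15 TPM in CDDP hearts. Smooth muscle and fat markers had 1 higher and 1 lower each, of 8 and 6, with Des and Fabp4 the most abundant, and no neutrophil, atrial or skeletal muscle marker passed. No marker passed in STING-/-+CDDP against CDDP, where 0.362% of all tested genes were higher and 0.854% lower. The part of these shifts in the values of Adrb1, Adra1b and Pde4a was not tested. Relative to the mean of the cardiomyocyte markers, 3 of the 8 genes were lower than Saline, where 461 of all tested genes were lower and 2590 higher. In STING-/-+CDDP against CDDP 0 of the 8 were higher under this scaling. Over the 13 alternatives, 5 to 325 of all tested genes were higher there. Scaling to the cardiomyocyte markers moved the median of all genes to 0.38 in CDDP against Saline and to -0.36 in STING-/-+CDDP against CDDP. Over the 13 alternatives, the log2 fold changes of STING-/-+CDDP against CDDP ranged from 0.74 to 1.62 for Adrb1 and 0.94 to 1.39 for Pde4a.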

How the data were processed

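Heart RNA of 12 mice was sequenced, 3 per group. The submitters' processing notes name fastp, HISAT and RSEM and the build GRCm38.p5, without versions, and the authors deposited gene-level TPM in a single table, in which 398 loci carry assembled names rather than gene identifiers. Each heart's column matched a sample by its title. Further columns, named for the 4 groups, hold the authors' group means and were not used. TPM keeps no read depth, and strandedness is not given in the sources used here. Hearts were grouped by the labels. The limma p-values rest on the spread between hearts within a group, pooled over the 4 groups (8 residual degrees of freedom) and moderated across genes. The permutation p-values use only the 3 hearts of each compared group.

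TPM was taken as log2(TPM + 1). Genes at 1 TPM or more in at least 3 hearts were fitted with limma 3.58.1 in R 4.3.3, with 1 coefficient per group, all 12 hearts, a mean-variance trend and Benjamini-Hochberg adjustment over 13815 genes. Median SE was 0.216. The script was tested on simulated data. Fold changes on this scale understate those of low genes. Shares were compared by exact permutation tests. Positions and overlaps came from GENCODE on GRCm38 (55141 of 55885 identifiers matched), promoters from RefSeq. Plots used matplotlib 3.10.9 in Python 3.11.15.

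Genes named were the 8; in each main comparison the 10 other pathway genes of largest change among those passing; Gnas, Grk2, Prkaca, Prkar1a, Akap6, Pln, Crem and Pde4b always; the 3 genes nearest in pattern to each of the 3 most variable; and the most abundant marker of a list. Results of some genes that the rule names are not reported here. Further genes that spell out a count were picked with their values in view. The 8 genes and all lists were chosen with earlier results of these data known. Of 13 alternatives, 3 were added after seeing the data: scaling to cardiomyocyte markers, an atrial marker covariate, and leaving out CDDP replicate 1 with Saline replicate 2.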

Additional observations from a re-analysis of the deposited data

How the results depend on the processing

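Under 13 alternatives and with each of the 12 hearts left out, Adrb1 and Pde4a kept their calls in CDDP against Saline, with log2 fold changes of -2.53 to -1.36 and -1.70 to -1.12 over the alternatives and adjusted p up to 0.0182 and 0.0279; Adra1b lost its call only without CDDP replicate 1 and Saline replicate 2 together (adjusted p = 0.0544). That setting called 1 of the 8 genes higher (Adcy6). Adcy5 passed under median-of-ratios scaling (0.0162), quantile normalization (0.0158) and the atrial marker covariate (0.0193), while its fold change shrank to -0.39 relative to cardiomyocyte markers and -0.29 without the 2 hearts (0.487).

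Against CDDP, in STING-/-+CDDP hearts, Adrb1 passed in 6 of 13 alternatives, Pde4a in 8 and Adra1b in 5. The count of the 8 genes called higher was 3 under median-of-ratios and quantile scaling, without mitochondrially encoded genes and with the atrial covariate, 1 with a pseudocount of 0.1 and 0 with no filter, with only the compared groups, with the replicate block, relative to cardiomyocyte markers, and without the 2 hearts that stand apart; over the hearts left out it was 0 to 2. Over all tested genes, those called higher numbered 5 to 325 over the alternatives and 5 to 130 over the hearts left out. With the replicate block the adjusted p (limma) was 0.0792 for Adrb1 and 0.0576 for Pde4a. The numbers do not pair the hearts: same-number deviations correlated between -0.333 and 0.261, and a heart correlated best with its own number in 8 of 36 cases. Weighting hearts by quality called 1 of the 8 lower in STING-/-+CDDP against STING-/-, Adrb1 (-0.61, adjusted p = 0.0383).

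Of the pathway genes against Saline, 4 were higher and 10 lower with only the compared groups, and 15 higher and 11 lower relative to cardiomyocyte markers, a scaling that moved the median of all genes to 0.38 and the calls over all genes to 2590 higher and 461 lower; over the hearts left out there were 6 to 11 higher and 13 to 23 lower (the lowest without Saline replicate 1). Against CDDP, pathway genes called higher were 1 with a pseudocount of 0.1 and without mitochondrially encoded genes and 3 under both median-of-ratios and quantile scaling; those called lower were 7 under both of these, 2 with only the compared groups, with the replicate block and relative to cardiomyocyte markers (median of all genes -0.36), and 0 with no filter. Over the hearts left out they were 0 to 5 lower. For STING-/-+CDDP against STING-/-, the 1 higher gene became 0 with no filter and relative to cardiomyocyte markers, and 1 lower gene appeared under median-of-ratios scaling, without mitochondrially encoded genes and without the 2 hearts, and 8 with weights; over the hearts left out both counts were 0 to 1. Over the alternatives, all genes called against Saline numbered 326 to 2590 higher and 461 to 2045 lower. Against CDDP they numbered 5 to 325 higher and 7 to 389 lower. In STING-/-+CDDP against STING-/- they numbered 16 to 227 higher and 20 to 386 lower. The causes were not tested.

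Signs turned only for values that did not pass. Against Saline, Adra1a was at 0.061 with weights and 0.14 relative to cardiomyocyte markers, Pde4d at 0.33 under that scaling and 0.16 without the 2 hearts, and Adcy6 at -0.081 with the atrial covariate. Against CDDP, median-of-ratios scaling, quantile normalization and the atrial covariate gave Adcy5 at 0.014, 0.033 and 0.015 and Adcy6 at 0.037, 0.059 and 0.022; Pde3a was at 0.022 under quantile normalization, and Pde4d at -0.16 relative to cardiomyocyte markers and -0.030 without the 2 hearts. In STING-/- against Saline, Adra1b was at -0.0545 with weights, at -0.047 relative to cardiomyocyte markers and at -0.078 with the covariate, and Adcy5 at 0.14 without the 2 hearts. In STING-/-+CDDP against STING-/-, Adra1b was at 0.0045 under median-of-ratios scaling, 0.026 under quantile normalization, 0.13 relative to cardiomyocyte markers and 0.012 with the covariate. The interaction of Adcy5 was at 0.081, 0.0081, 0.10 and 0.38 under median-of-ratios scaling, without mitochondrially encoded genes, under quantile normalization and with the covariate. Over the hearts left out, values against Saline ranged from -0.63 to 0.071 for Adra1a, -0.26 to 0.72 for Adcy6, -0.20 to 0.41 for Pde3a and -0.28 to 0.093 for Pde4d. Against CDDP they ranged from -0.37 to 0.23 for Adcy5, -0.71 to 0.27 for Adcy6, -0.44 to 0.16 for Pde3a and -0.030 to 0.35 for Pde4d. In the other comparisons they ranged from -0.16 to 0.43 for Adra1b and -0.22 to 0.14 for Adcy5 (STING-/- against Saline), -0.45 to 0.10 for Adra1b (STING-/-+CDDP against STING-/-), and -0.30 to 0.30 for the interaction of Adcy5.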
